A study of Mus musculus with 7 samples.

Results

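The Myc domain examined here is the stretch of mouse chromosome 15 from 61500000 to 63900000 (mm9). It holds Myc near 61.82 Mb, the non-coding gene Pvt1 beside it, and a cluster of blood enhancers between 63.4 and 63.7 Mb. Its members were chosen by position: every peak of open chromatin whose midpoint lies in that window was kept, which gave 71 of 98723 peaks in the whole table. The rule itself uses no measured value except that a peak was found in these libraries at all, so the presence of peaks is not a finding. The domain was, however, chosen with earlier results of these data known. Chromosome 15 as a whole carries 3960 peaks.

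Open chromatin was mapped in haematopoietic stem cells of C57BL/6 mice by Omni-ATAC-seq, an assay that uses a transposase to tag DNA not covered by nucleosomes. All groups share the same history: bone marrow enriched for cKit was taken from donors aged 24 months, infected with lentivirus, transplanted into lethally irradiated recipients, and sorted after 16 weeks as LSK, Flt3-, CD150+, CD48-, CD45.2+, hCD2+ cells. The 4 control libraries (numbered 1 to 4) carried the control virus and the 3 Runx3 libraries (numbered 1, 3 and 4) the virus expressing Runx3, a DNA-binding factor of the RUNX family. The labels name no young donors and no untransplanted cells. They leave unsaid whether each library is a separate animal, so a p-value here reflects the spread between libraries, which may be technical. Sorted cells are the survivors of transplantation, and the labels do not name the promoter that drives Runx3.

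Myc encodes a transcription factor that drives ribosome production, metabolism and cell growth, and in blood stem cells its level bears on the balance between self-renewal and differentiation. Pvt1 encodes a long non-coding RNA, and its body lies between Myc and a large stretch with few genes. In mouse blood cells, Myc is controlled in part by an enhancer cluster far downstream, which consists of separate modules bound by blood transcription factors and used to different degrees in stem cells, progenitors and leukaemia. In the RefSeq gene order of the mouse assembly GRCm38.p6, Myc is followed by Pvt1, then by non-coding genes and pseudogenes, then by the Gsdmc genes, which belong to the gasdermin family, and by Cyrib, which encodes a regulator of the actin cytoskeleton. That assembly differs from the build of the peaks, so only the order of genes was used and no peak was assigned to an exon, intron or promoter.

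Total counts in peaks ran from 1738164 to 3758422 per library, and the Runx3 libraries were shallower on average. Values are given as CPM, read counts relative to library size, scaled between libraries by TMM, with the mean ± SD over libraries. In the deepest library 3 counts equal 0.863 CPM, and in the shallowest 1.87 CPM. Control 1, control 2 and Runx3 1 share 57 peaks of the whole table that lie at least 8-fold apart from the other 4 libraries. None of the following results was restricted to one of these sets. Within-set values stand beside the peaks with the smallest p in each direction and the tested peaks whose groups did not overlap. The share of all counts in the domain was between 0.0561% (control 1) and 0.0634% (control 4) in controls and between 0.0591% and 0.0625% with Runx3.

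Open chromatin in the domain was concentrated on the Myc side and on the far side, with a long sparse stretch between them. The domain was divided by distance from Myc into 5 stretches. The promoter side runs from the window start to 61860000 and held 8 peaks, or 22.2 per Mb. That is below the 29.6 per Mb of the whole domain, though these peaks took 20.6% of the domain's CPM on average. The Pvt1 stretch, set from the approximate place of the gene, runs on to 62120000 with 16 peaks. The middle, up to 63400000, held 10 peaks over 1280 kb, or 7.81 peaks per Mb, and its widest gap between peaks ran from 62955136 to 63330094. The far enhancers held 19 peaks in 300 kb, or 63.3 per Mb, close to the 61.5 per Mb of the Pvt1 stretch. The far end, from 63700000 on, held 18 peaks and was the densest, with 90 per Mb.

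The 4 highest peaks of the domain are also the 4 that exceed 1000 bases in width. Together they took between 35.1% and 41.5% of the domain's CPM in each library. The highest lies among the far enhancers at chr15:63479289-63480520, 1.66 Mb from the main peak at Myc, and ranked 927 of all 98723 peaks by mean level. The main peak at Myc, chr15:61816323-61817343, ranked 1613 overall and was the next in the domain. They are followed by chr15:63828852-63830248 and chr15:63890693-63892431, both in the far end. CPM are not divided by peak width, so width enters these ranks and shares. Per kb of peak these far-end peaks had mean levels of 48.3 and 20.7 CPM, below the 71.6 CPM of the narrow peak at chr15:61814930-61815208. Across all 71 peaks the median level was 3.64 CPM and the median width 389 bases, against 4.72 CPM and 388 bases for the whole table.

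**Figure D1:**
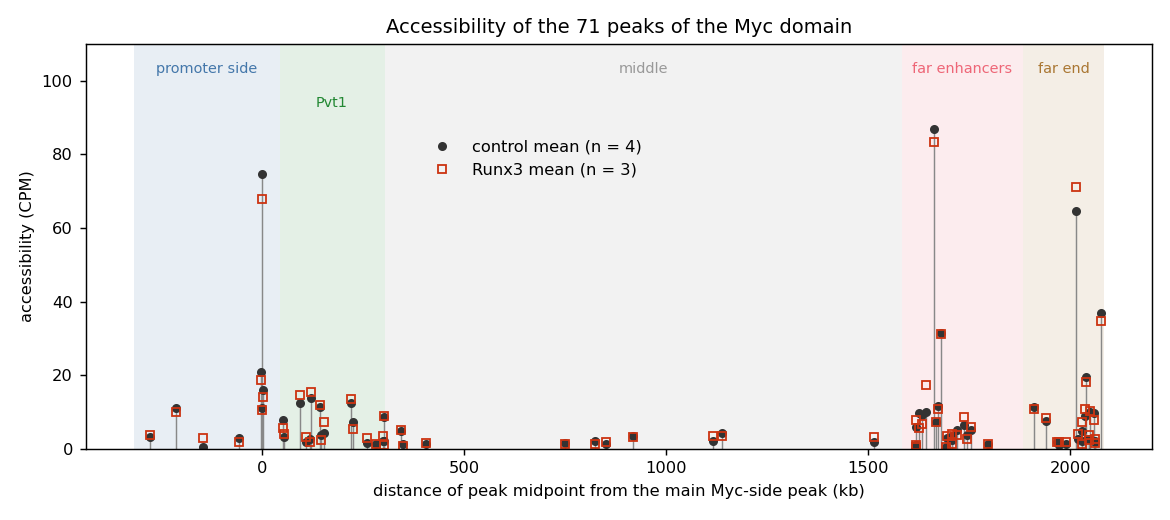
Mean accessibility in CPM (vertical axis) of each of the 71 peaks against its distance in kb from the main Myc-side peak (horizontal axis), with control means as filled circles and Runx3 means as open squares. Shading marks the 5 stretches, and the highest peak stands among the far enhancers, 1663 kb from the Myc peak.

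Beside Myc, accessibility was high and differed little between the vectors. The main Myc peak measured 91.4, 74.8, 68.7 and 63.5 CPM in controls 1 to 4, and 65.5, 75.0 and 63.1 CPM in Runx3 1, 3 and 4. Control 1 was the highest of the 7 and the groups overlapped. The means were 74.6 ± 12.1 CPM (SD, n = 4) and 67.9 ± 6.32 CPM (SD, n = 3). The log2 fold change was -0.12 ± 0.13 (SE), with a 95% interval of -0.37 to 0.14 and an edgeR adjusted p of 0.88. Without control 1 it was -0.01.

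The other 3 peaks within 5 kb of the Myc position were weaker. The peak at chr15:61814930-61815208, on the far side of the main one from Pvt1, averaged 20.8 ± 1.44 CPM in controls (n = 4) and 18.6 ± 4.79 with Runx3 (n = 3). It is narrow, with 278 bases, and per kb of peak its mean level of 71.6 CPM was about that of the main peak, 70.3 CPM. The peak at chr15:61815915-61816162 averaged 11.2 ± 1.99 and 10.5 ± 2.49 CPM. The peak at chr15:61818542-61818889, on the Pvt1 side of the main peak, averaged 15.9 ± 1.73 and 14 ± 3.69 CPM.

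All 5 tested peaks of the promoter side had a log2 fold change below 0, between -0.25 and -0.12, and none passed the test. The 95% interval of each includes 0. Over all tested peaks, 29452 of 57504 had a log2 fold change below 0. The main Myc peak and its neighbours within 5 kb of Myc are among these promoter-side peaks, so the 5 are not separate places. The median log2 fold change of the stretch was -0.14, against -0.01 over all tested peaks. It was -0.34 in the set of control 1, control 2 and Runx3 1, and -0.07 in the other set, and 0.04 with each library's total as a covariate. Without control 1 it was -0.20. The part of depth in this median was not tested otherwise. The tested peak farthest out on this side, chr15:61602251-61602868, averaged 10.7 CPM over all libraries.

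Peaks of the Pvt1 stretch were well below the main Myc peak. The highest were chr15:61937946-61938637 with a mean of 14.5 CPM over all libraries, chr15:61910785-61911528 with 13.3 CPM and chr15:62037865-62038583 with 12.9 CPM. Of the 16 peaks 8 were tested, and 6 of these had a log2 fold change above 0, beside 28052 of all 57504 tested peaks. The median of the 8 was 0.09. It was -0.16 in the set with control 1 and 0.18 in the other set, so the direction of the median differed between the sets.

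At the start of the Pvt1 stretch, 52.6 kb from the main Myc peak, chr15:61869206-61869758 measured 7.75, 8.18, 7.86 and 7.19 CPM in controls 1 to 4. It measured 5.61, 5.48 and 5.90 CPM in Runx3 1, 3 and 4, so every Runx3 library lay below every control. These values rest on few reads, 15, 21, 27 and 25 in controls 1 to 4 and 9, 13 and 13 in Runx3 1, 3 and 4. The log2 fold change was -0.44 ± 0.30 (SE), with an interval of -1.04 to 0.15, and did not pass (edgeR adjusted p = 0.75). The log2 ratio was -0.47 in the set with control 1 and -0.37 in the other set. A neighbour at chr15:61869819-61870440, 5.16, 2.73, 1.46 and 3.16 CPM in controls against 3.74, 5.48 and 3.18 CPM with Runx3, was left out by the low-count filter and its groups overlapped.

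Another Pvt1 peak lay higher in every Runx3 library. At chr15:61970668-61971212 the controls measured 2.58, 4.67, 6.11 and 3.74 CPM and the Runx3 libraries 6.24, 7.59 and 7.72 CPM. The gap between the highest control and the lowest Runx3 library is narrow. The values rest on 5, 12, 21 and 13 reads in controls 1 to 4 and on 10, 18 and 17 reads in Runx3 1, 3 and 4. The log2 fold change was 0.71 ± 0.33 (SE), with an unadjusted p of 0.037 in edgeR and an adjusted p of 0.56. The log2 ratio was 0.71 within the set of control 1 and 0.59 in the other, and the log2 fold change was 1.08 with each library's total as a covariate.

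A further Pvt1 peak, chr15:62041427-62041816, measured 8.26, 7.01, 6.40 and 7.48 CPM in controls and 5.61, 5.48 and 4.99 CPM with Runx3. This peak had 16, 18, 22 and 26 reads in controls 1 to 4 and 9, 13 and 11 reads in Runx3 1, 3 and 4. Its groups did not overlap either, and its log2 fold change of -0.43 ± 0.31 (SE) did not pass (edgeR adjusted p = 0.78). Its log2 ratio was -0.41 in the set with control 1 and -0.38 in the other set.

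The middle of the domain was nearly closed. Its 10 peaks summed to 24.5 ± 2.72 CPM in controls (n = 4) and 25.2 ± 4.21 CPM with Runx3 (n = 3), which is 3.75% of the domain's CPM on average. Of these, 2 passed the low-count filter, chr15:62159949-62160807 with 4.92 ± 1.52 and 5.14 ± 3.31 CPM, and chr15:62954516-62955136 with 4.38 ± 0.907 and 3.54 ± 2.0 CPM. The third named peak, chr15:62734556-62735164, averaged 3.39 CPM over all libraries and did not pass it.

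The far enhancers held 30.9% of the domain's CPM on average, beside 29.6% in the far end, and the far end was the higher of these in control 1, Runx3 1 and Runx3 3. Their main peak, chr15:63479289-63480520, measured 64.5, 98.1, 79.5 and 105 CPM in controls 1 to 4, and 80.5, 82.6 and 87.1 CPM in Runx3 1, 3 and 4. The Runx3 libraries all fell inside the range of the controls. The means were 86.8 ± 18.3 CPM (SD, n = 4) and 83.4 ± 3.40 CPM (SD, n = 3), with a log2 fold change of -0.07 ± 0.13 (SE). The 95% interval ran from -0.33 to 0.19 and the edgeR adjusted p was 0.95.

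Seen against the main Myc peak, this enhancer peak was about as accessible per base. Per kb of peak the means over all libraries were 69.3 CPM for the enhancer and 70.3 CPM for Myc. The ratio of their CPM was 0.706, 1.31, 1.16 and 1.65 in controls 1 to 4 and 1.23, 1.10 and 1.38 in Runx3 1, 3 and 4. Control 1 had the lowest enhancer value, the highest Myc value and thus the lowest ratio, and control 4 the highest ratio. The means were 1.21 ± 0.392 (SD, n = 4) and 1.24 ± 0.140 (SD, n = 3), which differ by less than the spread of either group.

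**Figure D2:**
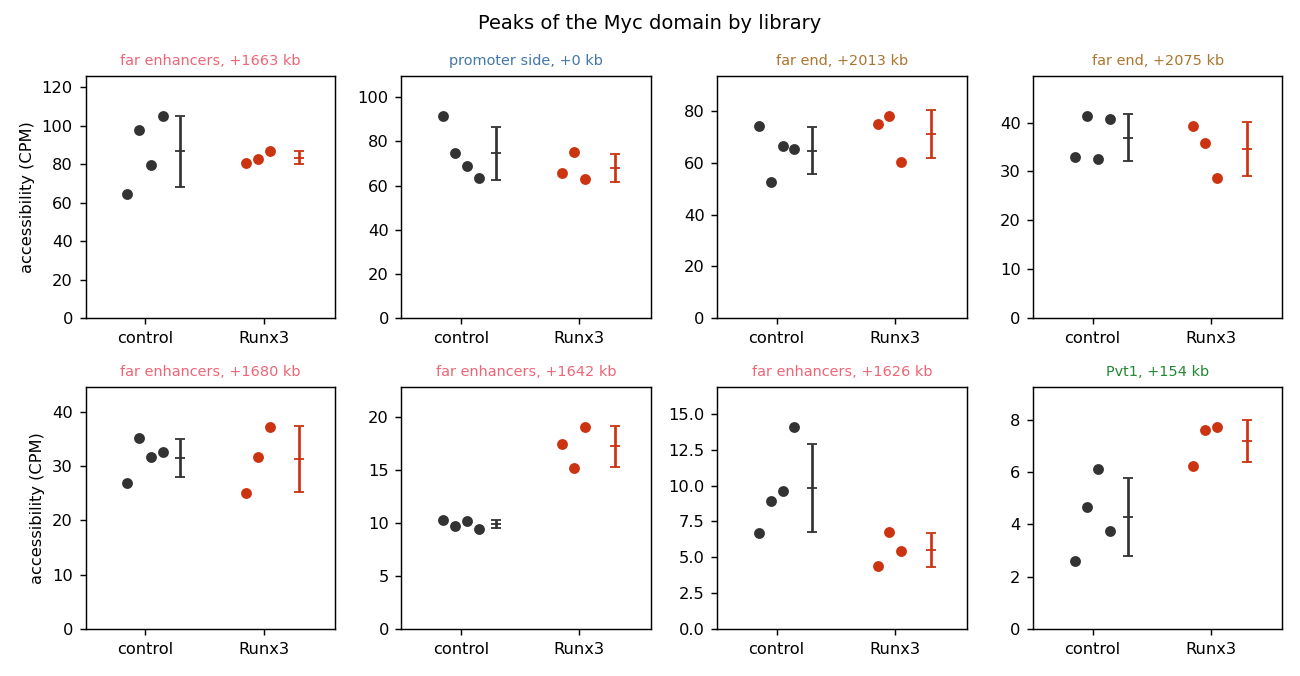
Accessibility in CPM (vertical axes from 0) of 8 peaks in every library, with control libraries in black, Runx3 libraries in red, and the mean with SD beside each group. The titles give the stretch and the distance from the main Myc peak in kb. The 5 highest peaks overlap between groups. The others were chosen for the smallest p of the domain, and among them the peaks at 1642 and 154 kb lie higher in all Runx3 libraries. The Pvt1 peaks at 61869206 and 62041427, lower in all Runx3 libraries, are not shown.

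The next far-enhancer peak by level, chr15:63496705-63497482, lies 1.68 Mb from the main Myc peak. It averaged 31.5 ± 3.43 CPM in controls and 31.3 ± 6.14 CPM with Runx3, and its 95% interval for the log2 fold change was -0.32 to 0.31. Between these peaks lies chr15:63489356-63490325, with 11.6 ± 2.87 and 10.7 ± 0.618 CPM. The main peak alone took from 39.3% to 45.9% of the far-enhancer CPM in controls and from 40.8% to 41.3% with Runx3.

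The smallest p of the whole domain belonged to a narrow far-enhancer peak of 224 bases at chr15:63458367-63458591. It measured 10.3, 9.74, 10.2 and 9.49 CPM in controls 1 to 4 and 17.5, 15.2 and 19.1 CPM in Runx3 1, 3 and 4. The controls lay close together and every Runx3 library stood above them. These values rest on 20, 25, 35 and 33 reads in controls 1 to 4 and on 28, 36 and 42 reads in Runx3 1, 3 and 4. The closeness of the controls thus rests on few reads. The means were 9.93 ± 0.390 CPM (SD, n = 4) and 17.2 ± 1.95 CPM (SD, n = 3). On the log2 scale the difference was 0.79 ± 0.22 (SE), or 1.73-fold, with a 95% interval of 0.36 to 1.23. The unadjusted p in edgeR was 0.00069, and after adjustment over all 57504 tested peaks it was 0.17, so the peak was not called. The log2 ratio was 0.77 within each library set. Per kb of peak its mean level was 58.3 CPM, below the 69.3 CPM of the main enhancer peak.

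In the same cluster and closer to Myc, the peak at chr15:63442533-63443108 lay in the opposite direction. It measured 6.71, 8.96, 9.61 and 14.1 CPM in controls 1 to 4 and 4.37, 6.75 and 5.45 CPM in Runx3 1, 3 and 4. Only Runx3 3 reached the lowest control, so the groups overlapped slightly. The log2 fold change was -0.84 ± 0.30 (SE) or 1.80-fold, with an interval of -1.45 to -0.24, an unadjusted p of 0.0075 in edgeR and an adjusted p of 0.35. The log2 ratio was -0.78 in the set with control 1 and -0.90 in the other set. With each library's total as a covariate the log2 fold change was -0.33. The contrast between these peaks of opposite direction was not tested.

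The remaining named far-enhancer peaks were chr15:63448367-63449253, with 9.14 ± 2.82 and 6.86 ± 2.22 CPM, and chr15:63536016-63536585, with 5.24 ± 1.90 and 3.75 ± 1.7 CPM. Their log2 fold changes of -0.42 ± 0.30 and -0.60 ± 0.39 (SE) did not pass (edgeR adjusted p = 0.78 and 0.74). Without Runx3 3 the former was -0.17, without control 2 -0.23 and without Runx3 4 -0.70. The latter was -0.33 without Runx3 4, -0.93 without Runx3 1 and -0.39 with each library's total as a covariate. In the set with control 1 it had a log2 ratio of 0.32, and -0.98 in the other set. Of the 12 tested far-enhancer peaks 5 had a log2 fold change above 0 and 7 below, with a median of -0.04. Summed over all 19 peaks, the cluster measured 164, 226, 202 and 229 CPM in controls 1 to 4 and 195, 202 and 213 CPM in Runx3 1, 3 and 4. Control 1 was again the lowest, and the Runx3 libraries lay within the controls.

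The far end summed to 192 ± 13.2 CPM in controls (n = 4) and 200 ± 7.78 CPM with Runx3 (n = 3), close to the enhancer cluster. It held chr15:63828852-63830248, with 64.6 ± 9.0 CPM in controls and 71.1 ± 9.41 CPM with Runx3, and the widest peak of the domain, chr15:63890693-63892431, with 1738 bases and 36.9 ± 4.76 against 34.6 ± 5.46 CPM. The log2 fold changes of these peaks were 0.14 ± 0.13 and -0.11 ± 0.15 (SE). Another, chr15:63855233-63855921, averaged 19.4 ± 3.61 and 18.1 ± 0.720 CPM. The peak at chr15:63845587-63846134 measured 4.65, 4.28, 4.66 and 5.75 CPM in controls and 4.37, 10.1 and 7.26 CPM with Runx3. Its groups overlapped and Runx3 1 stood with the controls. Its log2 fold change of 0.62 ± 0.32 (SE) did not pass (edgeR adjusted p = 0.63). It was 0.29 without Runx3 3 and 1.02 with each library's total as a covariate, and the log2 ratio was -0.03 in the set with control 1 and 0.69 in the other. The median over the 9 tested peaks of the far end was -0.00 on the log2 scale.

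**Figure D3:**
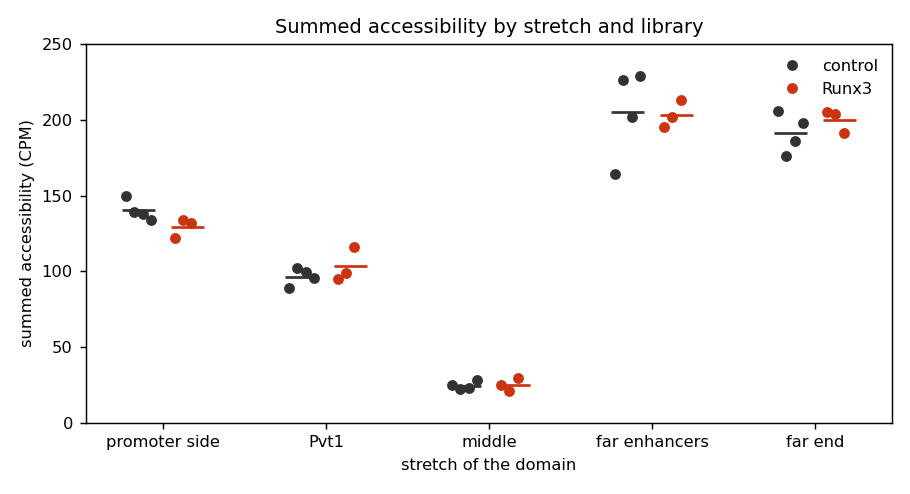
Summed CPM of all peaks of each stretch (vertical axis, from 0) in each library, controls in black and Runx3 in red, with a line at each group's mean. The far enhancers sum to between 164 and 229 CPM in controls and between 195 and 213 CPM with Runx3, and the middle to no more than 29.5 CPM in any library.

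Across the domain, 36 of the 71 peaks passed the low-count filter and were tested for a difference between Runx3 and control. None was called at an adjusted p under 0.05 by edgeR, DESeq2 or limma-voom. Over all 57504 tested peaks, 0.0330% were called higher and 0.0400% lower by edgeR. The shares called over all peaks by DESeq2 and limma-voom were not counted, so their lack of calls here has no such share beside it. At an unadjusted p under 0.05 in edgeR, 2 of the 36 were higher (3.91% of all tested peaks) and 1 was lower (4.40%). These 3 make up 8.33% of the 36. With limma-voom on the same peaks the counts were also 2 and 1. DESeq2 gave 2 and 1 as well, but it was run without the low-count filter, so its counts do not refer to the 36 alone. In 2 peaks every Runx3 library lay above every control (4.36% of all tested peaks), and in 2 every Runx3 library lay below (4.58%). These shares are near those of the whole table.

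Of the 36 tested peaks 16 had a log2 fold change above 0 and 20 below, with a median of -0.02 against -0.01 over all tested peaks. None differed by more than 1 on the log2 scale. For 25 of the 36 the 95% interval lay within a 2-fold change in either direction. For the other 11 a 2-fold change lies inside the interval, so at this depth a change of that size cannot be set aside for them. Summed over all 71 peaks, the domain measured 634, 665, 648 and 685 CPM in controls 1 to 4 and 641, 661 and 681 CPM in Runx3 1, 3 and 4.

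**Figure D4:**
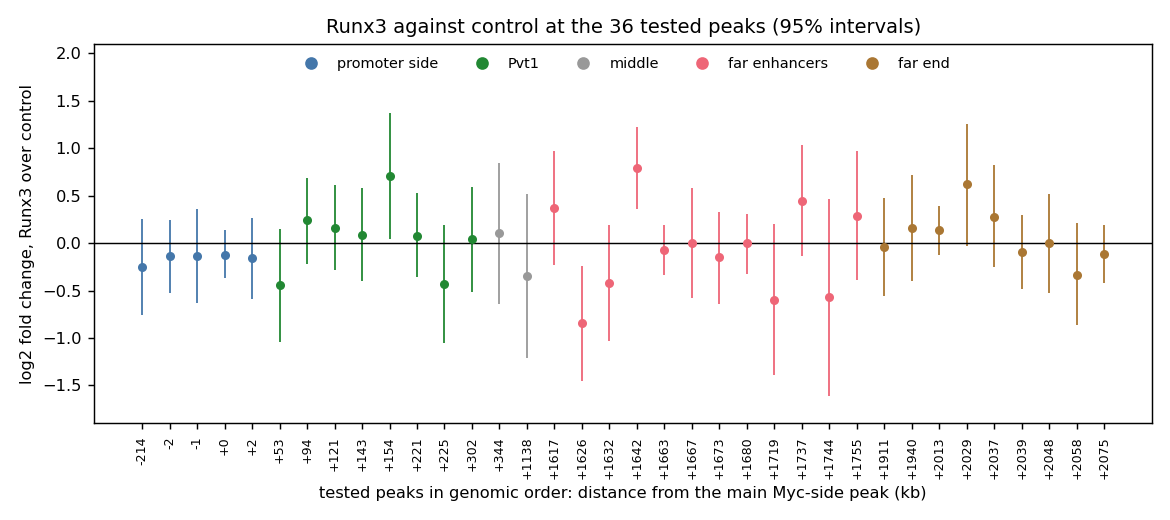
Log2 fold change of Runx3 over control (vertical axis) with its 95% interval for the 36 tested peaks, in genomic order and labelled by distance from the main Myc peak in kb (horizontal axis), coloured by stretch. The peak at 1642 kb (0.79) and that at 1626 kb (-0.84) stand furthest from 0, on opposite sides.

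The peaks whose pattern over the 7 libraries was most like that of the main Myc peak were found by the mean absolute difference of their centred log2 levels. The closest was the Pvt1 peak at chr15:62041427-62041816, with 0.14. It was followed by 2 peaks of the far end, chr15:63855233-63855921 with 0.15 and chr15:63828852-63830248 with 0.18. The median over the other 35 tested peaks was 0.28. The main far-enhancer peak ranked 13 with 0.25, and the peaks at 63458367 and 63442533 ranked 30 and 31. Peaks right beside the main Myc peak were not among the closest. That at 61814930 ranked 12 with 0.25, that at 61818542 ranked 15 with 0.27 and that at 61815915 ranked 20 with 0.29. This is a description over 7 libraries, of which control 1 was the highest at the main Myc peak. The closest peak, at 62041427, had only 9 to 26 reads per library. Its log2 fold change was -0.43, against -0.12 at the main Myc peak. The part of counting noise in these ranks was not tested.

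The 35 peaks that the low-count filter left out had mean levels from 0.453 to 3.64 CPM and at most 19 reads in any library, and 5 of them had no read in at least 1 library. In 2 of the 35 every Runx3 library lay above every control, which is 5.71%, and in 0 every one lay below. Over all 41219 peaks left out by the filter these shares were 4.55% and 3.57%. One of them, chr15:61669651-61669850 on the promoter side, was singled out after its values were seen. It had 1, 2, 1 and 2 reads in controls 1 to 4 and 6, 3 and 8 reads in Runx3 1, 3 and 4. Fitted without the low-count filter it did not pass (edgeR adjusted p = 0.23).

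At the edges of the window, the outermost members were chr15:61539510-61539913, with a mean of 3.43 CPM, and chr15:63890693-63892431, with 35.9 CPM. The nearest peaks outside were chr15:61372093-61372900, with 5.88 CPM, and chr15:63907104-63907710, with 10.6 CPM.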

How the data were processed

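For each peak and each of 7 libraries the authors deposited a read count, a whole number without normalization. Per the submitters' processing notes, the build was mm9 and the tools were MACS2, Picard, SAMtools, Bowtie2, FastQC and Trim Galore. How the shared peak set was made, tool versions, and whether reads were shifted for the cut are not given in the sources here. Starts may be off by 1 base, since the table does not say how it counts. Marker genes and motifs were not analysed here, since the table names no genes and no mm9 genome was used.

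The main test was that of edgeR 4.0.16 (R 4.3.3) on the counts of all peaks (filterByExpr, minimum count 10, TMM, robust quasi-likelihood test, 4 control against 3 Runx3 libraries), which left 57504 peaks. Adjustment followed Benjamini-Hochberg over all of them, with a threshold of 0.05. The standard error is the log2 fold change over the square root of F and is approximate. The function was tested on simulated data. CPM use the total of tested peaks times the TMM factor, and log2 ratios within a library set and likeness used 0.5 CPM added. The level of 3 counts reflects counting only. Intervals cover the spread between libraries as the edgeR fit estimates it, and no error outside that model. Libraries of a group differed by more than sampling noise (a chi-square of 1.20 to 2.61 per degree of freedom), so none was merged.

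The peaks named are those within 5 kb of Myc, the 3 highest of each stretch (5 among the far enhancers), the 3 with the smallest p in each direction and the 3 most like the main Myc peak. Any other peak was chosen after its values were seen. The Pvt1 stretch is set at 40 to 300 kb after Myc. The domain, stretches and naming rule were chosen with earlier results of these data known. Alternatives used DESeq2 1.42.0 (without the low-count filter), limma-voom (limma 3.58.1), and other scaling and filters. Others used a replicate block, the library set or the total count as a term, or left out each library.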

Additional observations from a re-analysis of the deposited data

Results flagged for a closer look

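Among 30 values examined (the named peaks, the sum of each stretch and the enhancer-to-Myc ratio), 2 had a control library far from the other 3, where chance gives about 1.5. At chr15:61910785-61911528 in the Pvt1 stretch, control 1 measured 9.29 CPM, below 13.2, 13.4 and 13.5 CPM in controls 2 to 4. At chr15:62159949-62160807 in the middle stretch, control 4 measured 7.19 CPM, above the other controls. The groups overlapped at both peaks, and the cause was not tested.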

How the results depend on the processing

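No domain peak was called in either direction under any of the 16 alternatives (0 and 0 by each). At an unadjusted p under 0.05 between 1 and 3 were higher and between 0 and 2 lower. The shares called over all peaks were not counted for the alternatives. The median log2 fold change of the far end, -0.00, was 0.13 without a low-count filter. It was 0.12 with DESeq2, which was also run without that filter. With each library's total as a covariate the medians of the promoter side, the Pvt1 stretch and the far enhancers were 0.04, 0.32 and 0.09. Leaving out 1 library gave medians from -0.20 to -0.06 (promoter side), -0.04 to 0.23 (Pvt1), -0.47 to -0.06 (middle), -0.10 to 0.04 (far enhancers) and -0.07 to 0.14 (far end). Without control 2, 3 or 4 only the peak at 62954516 was tested in the middle. The -0.47 is its value alone, without control 2. The middle had no tested peak at a minimum count of 20, so no value there.

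The direction of 12 of the 23 tested named peaks held under every alternative that tested them. Among them, the peak at 63458367 stayed between 0.71 and 0.88, with edgeR adjusted p from 0.072 (without control 1) to 0.66 and 1.0 in DESeq2. That at 63442533 stayed between -1.02 and -0.33. The other 11 were small or poorly fixed. With each library's total as a covariate, the peaks at 61815915, 61818542, 63479289, 63489356 and 63496705 turned to 0.04, 0.08, 0.12, 0.06 and 0.16. The peak at 63496705 (-0.00) was 0.01 without TMM and 0.00 at a minimum count of 20. Leaving out 1 library gave ranges that include both signs: -0.25 to 0.06 (61815915), -0.00 to 0.35 (61910785), -0.04 to 0.16 (62037865), -0.56 to 0.37 (62159949), -0.76 to 0.11 (62954516), -0.17 to 0.04 (63479289), -0.14 to 0.12 (63496705), -0.16 to 0.01 (63855233) and -0.20 to 0.02 (63890693). The cause was not tested.

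The numbers were not taken to pair the libraries in the main test. The deviations of pairs 1, 3 and 4 correlated weakly, at 0.117, 0.0993 and 0.0663, and these values do not settle whether the libraries are paired. Each Runx3 library correlated best with the control of its number, as did controls 1 and 3, while control 4 correlated best with Runx3 3 (0.0865). With the replicate number as a block, the main far-enhancer peak at 63479289 was 0.01 and the peak at 63496705 was 0.05, and again 0 peaks were called. The low-count filter left out 35 of 71 peaks, and fitted without it 0 of them passed in edgeR (1 at an unadjusted p under 0.05).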
